A study of Mus musculus with 12 samples.

Results

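The genes described here are the receptors of the epidermal growth factor (EGF) family and their ligands, taken by symbol from the count table: Egfr, Erbb2, Erbb3 and Erbb4 among the receptors, and Hbegf, Areg, Btc, Tgfa, Nrg1 and Nrg4 among the ligands. These are 10 of the 54134 genes in the table, and each symbol had 1 gene identifier. They were measured by RNA-seq of inguinal white adipose tissue (iWAT), a subcutaneous fat depot, from 12 male C57BL/6J mice. At 8 weeks of age every mouse received 1000000000000 genome copies of an adeno-associated virus by tail vein, carrying GFP in 6 mice (AAV-GFP) and mouse Notum in the other 6 (AAV-Notum). The vectors act in the liver, through a promoter used by hepatocytes, so the fat was exposed to what the liver released. The mice ate chow for 4 weeks and fasted for 4 h before collection.

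EGF family receptors are tyrosine kinases of the cell surface that pair when a ligand binds and then pass the signal to the Ras-ERK and PI3K pathways. EGFR binds EGF-like ligands, ERBB3 and ERBB4 bind neuregulins, ERBB2 has no known ligand of its own and serves as a partner, and ERBB3 has little kinase activity. The ligands are made as membrane-bound precursors that proteases release. NRG4 is known as a factor that fat cells secrete. NOTUM is a secreted enzyme that removes the lipid that Wnt proteins need to signal, and Egfr is one of the genes that the study followed as Wnt targets, so the comparison asks how the family stood in fat when the liver made more NOTUM.

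Libraries held 15266635 to 21618860 assigned reads in AAV-GFP mice and 14711113 to 17838229 in AAV-Notum mice. The tissue label fit the adipocyte markers, with 43185 to 85554 reads of Adipoq per mouse. The vectors were built to act in the liver, and in the fat Notum itself had 1 to 17 reads in AAV-GFP mice. It had 8 to 16 in AAV-Notum mice apart from 560 in mouse S_2032 and 433 in mouse S_2041. Markers of other tissues varied between mice. The summed level of 10 hepatocyte markers was 304 to 5940 CPM (counts scaled to library size) in AAV-GFP mice and 176 to 993 CPM in AAV-Notum mice, and AAV-GFP mouse S_2013 alone had 65022 reads of Alb, the serum albumin gene. The mean log2 CPM of these markers was 3.49 in mouse S_2032 and 5.59 in mouse S_2041, against -0.32 to 1.15 in the other AAV-Notum mice. The part of liver transcripts in the Notum reads was not tested. The summed level of 15 lymphoid markers, genes of the B and T cells that fill a lymph node, was 9.76 to 1580 CPM in AAV-GFP mice and 490 to 2030 CPM in AAV-Notum mice, with AAV-GFP mice S_2011, S_2012 and S_2014 at 18.2, 243 and 9.76 CPM. In bulk tissue, fewer cells of a type and less RNA per cell cannot be told apart.

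Of the 10 genes, 8 had enough reads to be tested. The remaining ligands were close to the detection limit, with 0 to 6 reads of Areg and 0 to 10 reads of Nrg1 per mouse. Levels were compared between genes as CPM per kilobase of exon. In AAV-GFP mice Nrg4 was the most abundant, at 15.6 ± 4.43 CPM per kilobase (SD, n = 6), above every other member in all 6 mice. Egfr followed at 7.10 ± 1.04 CPM per kilobase and Btc at 5.22 ± 2.66 CPM per kilobase, and the ranges of these neighbours overlapped. Erbb2 stood at 2.22 ± 0.609 CPM per kilobase and Erbb3 at 1.28 ± 0.884 CPM per kilobase, again with overlapping ranges. Hbegf (0.51 ± 0.172), Tgfa (0.476 ± 0.273) and Erbb4 (0.186 ± 0.0225 CPM per kilobase) formed the low end, where Hbegf and Tgfa overlapped and Erbb4 was below Tgfa in all 6 mice. Among 15575 tested genes with a known length, Nrg4 lay at the percentile 81.1 of level, Egfr at 56.0, Btc at 42.3, Erbb2 at 30.2, Erbb3 at 21.8 and Erbb4 at 2.27.

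The clearest differences between the groups were in 1 ligand and a pair of receptors. Btc, the gene of betacellulin, a ligand of EGFR and ERBB4, was 3.63-fold lower in AAV-Notum mice, Egfr was 42.6% lower and Erbb2 was 36.7% lower. With p-values adjusted over all 15585 genes tested, edgeR's quasi-likelihood test called 0 of the 8 members, against 8 lower genes (0.0513% of all genes) and 0 higher genes (0.0%). Before adjustment 3 members had p under 0.05, all of them lower, where 9.54% of all genes were lower and 4.64% higher at that threshold. DESeq2, the tool of the original processing, called the same 3 members at an adjusted p under 0.05, where it called 2.26% of genes lower and 0.488% higher. Of the 8 members, 6 had a log2 fold change below 0, with a median of -0.32, while 48.8% of all genes were below 0 and their median was 0.01. Lists of cell type markers lay on both sides of 0. Below it were 8 of 10 adipocyte markers (median -0.32, summed level 41700 to 71800 CPM in AAV-GFP and 36200 to 81000 CPM in AAV-Notum mice), 7 of 8 endothelial markers (median -0.27, 673 to 1090 and 624 to 853 CPM) and 10 of 11 tested Schwann and nerve markers (median -0.46, 348 to 656 and 356 to 652 CPM). Of the fibroblast and adipose progenitor markers 7 of 12 were below 0 (median -0.17), and of the smooth muscle and pericyte markers 5 of 8 (median -0.27). By contrast 3 of 8 macrophage markers (median 0.10), 2 of 8 brown and beige adipocyte markers (median 0.50) and 0 of 15 lymphoid markers (median 0.97) were below 0. The lists farthest from 0 were hepatocyte, with 10 of 10 markers below it (median -2.79), and skeletal muscle, with 0 of 8 (median 1.39). Of the epithelial and keratinocyte markers 3 of 4 tested were below 0 (median -0.03).

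The starts of these 3 genes are shown because they are the members that were lower together. Each run is the strand of the gene, 5′ to 3′, from 250 bases before the RefSeq start to 50 bases after it, in GRCm38.p6. Egfr is on chr11:16751953-16752252 (plus strand), Erbb2 on chr11:98412234-98412533 (plus strand) and Btc on chr5:91402945-91403244 (minus strand). Capitals mark a GC box.
Egfr: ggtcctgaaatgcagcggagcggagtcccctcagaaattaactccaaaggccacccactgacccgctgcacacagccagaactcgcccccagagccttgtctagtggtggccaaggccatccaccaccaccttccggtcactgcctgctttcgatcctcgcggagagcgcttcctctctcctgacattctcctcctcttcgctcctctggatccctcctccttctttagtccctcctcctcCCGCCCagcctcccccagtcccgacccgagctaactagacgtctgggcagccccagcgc
Erbb2: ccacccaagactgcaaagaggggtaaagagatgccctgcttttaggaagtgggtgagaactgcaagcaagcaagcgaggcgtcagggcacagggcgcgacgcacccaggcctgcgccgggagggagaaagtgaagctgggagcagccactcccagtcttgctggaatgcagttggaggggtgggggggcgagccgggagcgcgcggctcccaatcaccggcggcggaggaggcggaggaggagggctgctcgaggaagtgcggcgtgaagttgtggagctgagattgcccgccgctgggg
Btc: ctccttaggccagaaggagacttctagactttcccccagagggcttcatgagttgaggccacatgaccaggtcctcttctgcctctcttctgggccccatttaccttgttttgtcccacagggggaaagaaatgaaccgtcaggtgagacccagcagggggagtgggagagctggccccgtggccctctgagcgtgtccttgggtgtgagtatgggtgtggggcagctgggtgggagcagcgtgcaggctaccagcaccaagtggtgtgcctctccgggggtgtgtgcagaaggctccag
Both strands were searched for the GC box GGGCGG, which 35.7% of 32851 promoters of this length hold, for the TCF/LEF letters CTTTG followed by AA, AT, TA or TT, held by 16.9%, and for the AP-1 letters TGANTCA, held by 7.8%. Egfr had 1 GC box, on the minus strand and beginning 9 bases before the start, and no other match was found in these 3 windows. Egfr and Erbb2 held 15 and 21 CpG dinucleotides and Btc 5, beside a median of 7 over all promoters. Of the 10 members 7 had an entry in the promoter table, and Erbb3, Hbegf and Nrg1 had none. Among the other entries, Nrg4 had the single TCF/LEF match, and Areg and Tgfa had 2 GC boxes each.

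Egfr (ENSMUSG00000020122, chromosome 11, 16752203 to 16918158, plus strand, GRCm38) encodes the receptor of EGF, TGF-alpha, amphiregulin, betacellulin and HB-EGF. Its level in AAV-GFP mice was 59.7 CPM at the lowest, 82.0 CPM at the median and 93.1 CPM at the highest. In AAV-Notum mice it was 36.1, 46.5 and 61.5 CPM, so that 5 of the 6 AAV-Notum mice lay below every AAV-GFP mouse and 1, mouse S_2042, lay just above the lowest, mouse S_2022. Mouse S_2042 also had the highest summed level of 8 skeletal muscle markers, 3750 CPM against 7.06 to 801 CPM in the other mice, whose part in its Egfr value was not tested. The means were 80.5 ± 11.8 and 46.2 ± 9.36 CPM (SD, n = 6 each), a log2 fold change of -0.80 (SE 0.14, 95% interval -1.11 to -0.49). The edgeR p was 0.000104 and 0.0847 after adjustment, and the DESeq2 adjusted p was 5.86e-05. A two-sided exact permutation test gave p = 0.00433, where the smallest p that 6 mice against 6 allow is 0.00216. Adjusted over all genes tested, this exact p was 0.223, and the smallest of any gene was 0.198. Without AAV-GFP mouse S_2013, which had the most hepatocyte transcripts, the log2 fold change was -0.75, and with the hepatocyte score as a covariate it was -0.79. Leaving out AAV-GFP mouse S_2022 gave an edgeR adjusted p of 0.0191, and leaving out AAV-Notum mouse S_2042 gave 0.0429. Leaving out any 1 of the other 10 mice left it above 0.05, at most 0.219. Egfros, an antisense transcript inside the gene, had at most 1 read per mouse.

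Erbb2 (ENSMUSG00000062312, chromosome 11, 98412470 to 98437716, plus strand) encodes the partner receptor without a ligand. Its level was 8.24, 11.3 and 15.1 CPM at the lowest, median and highest in AAV-GFP mice, and 6.17, 7.38 and 8.14 CPM in AAV-Notum mice. The groups did not overlap, although the nearest mice were at 8.24 and 8.14 CPM. Among all genes, 0.693% were lower without overlap and 0.398% higher. The means were 11.5 ± 3.17 and 7.31 ± 0.867 CPM, a log2 fold change of -0.66 (SE 0.18, 95% interval -1.04 to -0.28). The edgeR adjusted p was 0.152 and the DESeq2 adjusted p was 0.0285. The exact permutation p was 0.00216 before and 0.198 after adjustment over all genes tested. The 3 AAV-GFP mice with the highest Erbb2, at 15.1, 14.8 and 13.2 CPM, were mice S_2011, S_2014 and S_2012, those low in lymphoid transcripts. They also had the highest adipocyte scores of the 12 mice, 11.77, 11.86 and 11.71 against 10.65 to 11.67, and the highest endothelial scores of the AAV-GFP mice, 6.34, 6.43 and 6.77 against 5.95 to 6.09. Without mice S_2011 and S_2014 the log2 fold change was -0.43 (edgeR adjusted p = 0.61), and with the lymphoid score as a covariate it was -0.30 (adjusted p = 0.455). With the adipocyte score as a covariate it was -0.43 (edgeR adjusted p = 0.134). Mien1, on the opposite strand, overlaps the gene and had 534 to 906 reads per mouse, and whether reads were assigned by strand is not given in the sources used here.

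Erbb3 (ENSMUSG00000018166, chromosome 10), a neuregulin receptor, had 4.75, 5.37 and 18.3 CPM at the lowest, median and highest in AAV-GFP mice and 4.40, 5.30 and 6.26 CPM in AAV-Notum mice. The medians were close, and the high value belonged to AAV-GFP mouse S_2013, with 314 reads. That mouse also had the highest hepatocyte score, 8.07 against -0.32 to 6.48 in the other 11 mice. The log2 fold change was -0.51 (95% interval -1.22 to 0.19, edgeR adjusted p = 0.454). It was -0.05 without that mouse and -0.01 with the hepatocyte score as a covariate (edgeR adjusted p = 0.99).

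Erbb4 (ENSMUSG00000062209, chromosome 1), which binds both neuregulins and some EGFR ligands, was the scarcest receptor, with 21 to 48 reads per mouse. It ranged from 1.93 to 2.67 CPM in AAV-GFP mice and from 1.19 to 3.10 CPM in AAV-Notum mice, so the groups overlapped widely. The log2 fold change was -0.06, and its 95% interval of -0.52 to 0.39 covers changes in either direction (edgeR adjusted p = 0.882).

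**Figure D1:**
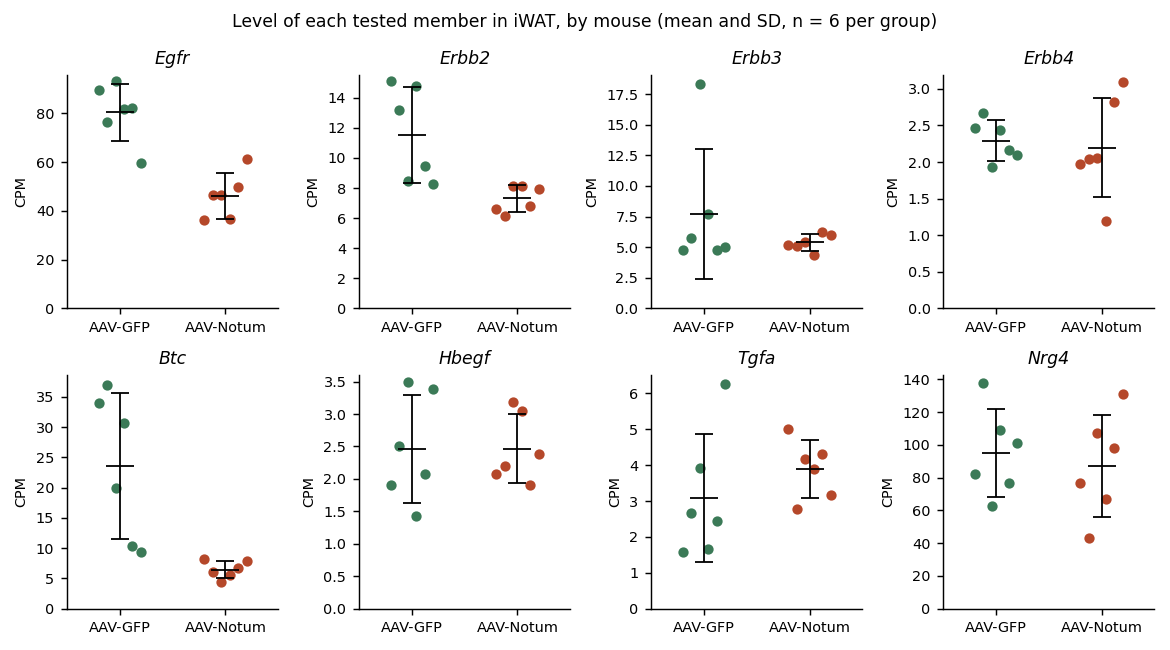
Level in CPM of the 4 receptors (upper row) and 4 tested ligands (lower row), one point per mouse, with the mean and SD of 6 mice as bars; each panel starts at 0 and has its own scale. Erbb2 and Btc do not overlap between groups, Egfr overlaps in 1 AAV-Notum mouse, and Erbb3 has 1 AAV-GFP mouse at 18.3 CPM.

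The summed level of the 4 receptors was 10.8 ± 1.79 CPM per kilobase in AAV-GFP mice and 6.56 ± 0.997 CPM per kilobase in AAV-Notum mice. Egfr made up most of it in both groups, with 66.1 ± 3.56% and 61.8 ± 3.57% (difference of -4.25 percentage points, exact permutation p = 0.0628). Erbb2 contributed 20.7 ± 4.83% and 21.7 ± 3.67% (exact permutation p = 0.701) and Erbb3 11.5 ± 6.05% and 13.8 ± 1.29% (exact permutation p = 0.416). Without AAV-GFP mouse S_2013 the Erbb3 share was 4.68 points higher in AAV-Notum mice (exact permutation p = 0.00433) and the Erbb2 share differed by -0.605 points. The share of Egfr differed by -4.94 points without AAV-GFP mouse S_2014 (exact permutation p = 0.0476), and by -4.93 and -5.11 points without AAV-Notum mouse S_2032 or S_2042 (exact permutation p = 0.0433 for each). Without any 1 of the other 9 mice p was above 0.05, at most 0.126. The small share of Erbb4 was 1.76 ± 0.34% and 2.67 ± 0.56%, a difference of 0.914 points with an exact permutation p of 0.013. These 4 p-values are two-sided and unadjusted, and shares of a whole move against each other, so that a larger share of Erbb4 stood beside a log2 fold change of -0.06 for its own level.

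**Figure D2:**
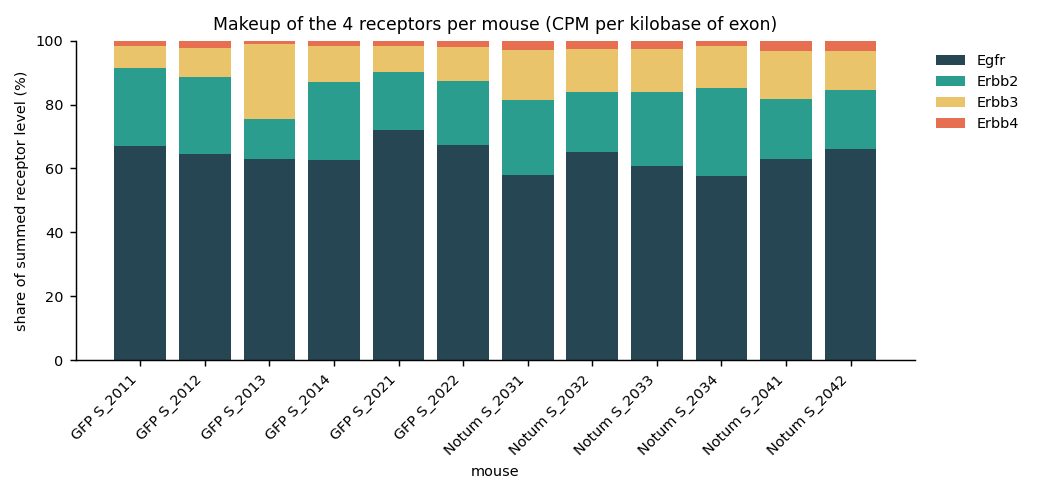
Share of each receptor in the summed receptor level (percent, from CPM per kilobase of exon), one stacked bar per mouse. Egfr holds 62.7 to 72.2% in AAV-GFP mice and 57.6 to 66.1% in AAV-Notum mice, and Erbb3 reaches 23.4% in AAV-GFP mouse S_2013.

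Among the ligands, Btc (ENSMUSG00000082361, chromosome 5, 91357261 to 91402994, minus strand) differed most. AAV-GFP mice S_2011, S_2012, S_2013, S_2014, S_2021 and S_2022 had 33.9, 37.0, 20.0, 30.7, 10.4 and 9.40 CPM, and AAV-Notum mice S_2031, S_2032, S_2033, S_2034, S_2041 and S_2042 had 8.22, 6.06, 4.37, 5.65, 6.76 and 7.82 CPM. All AAV-Notum mice were below all AAV-GFP mice, while the AAV-GFP mice themselves spread over a wide range and 2 of them came close to the AAV-Notum mice. These values rest on 153 to 623 reads in AAV-GFP mice and 66 to 162 reads in AAV-Notum mice. The means were 23.6 ± 12.0 and 6.48 ± 1.43 CPM, a log2 fold change of -1.86 (SE 0.35, 95% interval -2.61 to -1.11). The edgeR p was 0.000153 and 0.0906 after adjustment, and the DESeq2 adjusted p was 5.19e-05. The exact permutation p was 0.00216 before and 0.198 after adjustment over all genes tested. A fold change at or below that of Btc was found for 0.693% of the genes tested. Leaving out AAV-GFP mouse S_2022 gave an edgeR adjusted p of 0.0191, and leaving out any 1 of the other 11 mice left it above 0.05, at most 0.243.

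The AAV-GFP mice with the most Btc were again mice S_2012, S_2011 and S_2014, which had few lymphoid transcripts and the highest adipocyte scores. Among the AAV-GFP mice with lymphoid scores like those of the AAV-Notum mice, mouse S_2013 kept 20.0 CPM and mice S_2021 and S_2022 had 10.4 and 9.40 CPM. Without mice S_2011 and S_2014 the log2 fold change of Btc was -1.57 (edgeR adjusted p = 0.36), and with the lymphoid score as a covariate it was -1.23 (edgeR adjusted p = 0.269). For Egfr the same fits gave -0.76 (edgeR adjusted p = 0.344) and -0.71 (adjusted p = 0.243). With the adipocyte score as a covariate Btc was at -1.51 (edgeR adjusted p = 0.0895) and Egfr at -0.70 (adjusted p = 0.0461). The labels do not say what the mouse numbers stand for. Mice S_2011 to S_2014 against mice S_2031 to S_2034 gave log2 fold changes of -2.32 for Btc and -1.04 for Egfr (edgeR adjusted p = 0.0309 for each) and -0.82 for Erbb2 (adjusted p = 0.0597). Mice S_2021 and S_2022 against mice S_2041 and S_2042 gave -0.44 for Btc and -0.35 for Egfr (adjusted p = 0.67 for each) and -0.26 for Erbb2 (adjusted p = 0.715). All 3 genes were lower in both sets of mice, by less in the second, and the difference between the sets was not tested.

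**Figure D3:**
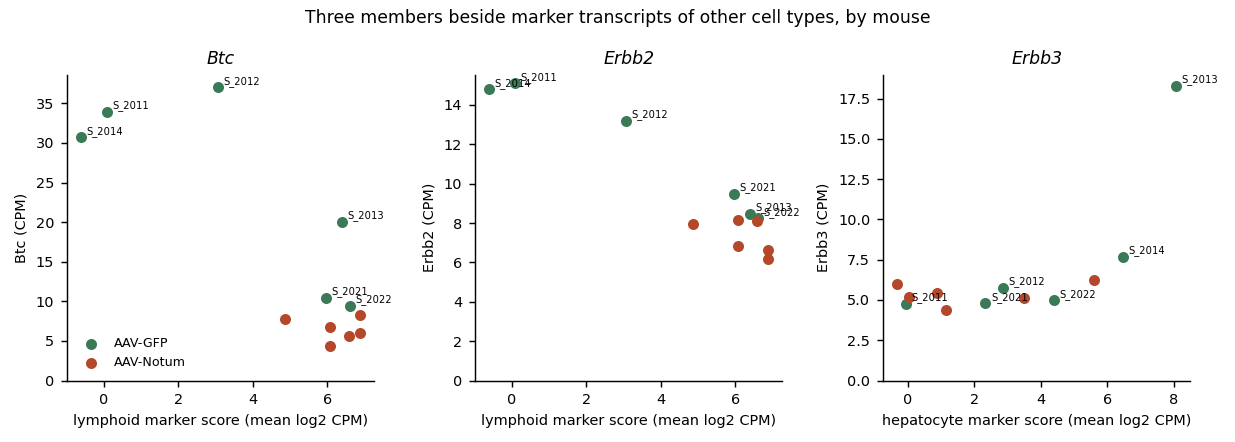
Btc and Erbb2 in CPM against the lymphoid marker score, and Erbb3 in CPM against the hepatocyte marker score (both scores are mean log2 CPM of a fixed gene list), one point per mouse, with AAV-GFP mice numbered. AAV-GFP mice S_2011, S_2012 and S_2014 combine low lymphoid scores with the highest Btc and Erbb2, and mouse S_2013 combines the highest hepatocyte score with the highest Erbb3.

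Btc lies in a group of EGF-like ligand genes on chromosome 5 that also holds Epgn, Ereg and Areg and spans 375531 bases. Its neighbours were almost silent in this fat, with 0 to 4 reads of Epgn, 0 reads of Ereg and 0 to 6 reads of Areg per mouse, against 66 to 623 reads of Btc. Within this group only Btc could be compared. Areg (ENSMUSG00000029378), the gene of amphiregulin, had 3 reads in all AAV-GFP mice together and 8 in all AAV-Notum mice, 6 of them in mouse S_2032.

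Hbegf (ENSMUSG00000024486, chromosome 18), whose product binds EGFR and ERBB4, was low in both groups, with 1.43, 2.28 and 3.50 CPM at the lowest, median and highest in AAV-GFP mice and 1.90, 2.29 and 3.18 CPM in AAV-Notum mice. The groups overlapped, and the log2 fold change was 0.00 with a 95% interval of -0.51 to 0.51 (edgeR adjusted p = 0.999). Tgfa (ENSMUSG00000029999, chromosome 6), the gene of TGF-alpha, had 1.57, 2.56 and 6.27 CPM in AAV-GFP mice and 2.77, 4.03 and 5.02 CPM in AAV-Notum mice, overlapping, with a log2 fold change of 0.33 (95% interval -0.37 to 1.03, edgeR adjusted p = 0.576). These values rest on 24 to 102 reads per mouse.

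Nrg4 (ENSMUSG00000032311, chromosome 9, 55220222 to 55326844, minus strand), the neuregulin of adipocytes, kept its place as the most abundant member in both groups. It had 62.6, 91.5 and 138 CPM at the lowest, median and highest in AAV-GFP mice and 42.9, 87.4 and 131 CPM in AAV-Notum mice. The groups covered nearly the same range, and the log2 fold change was -0.12 (95% interval -0.68 to 0.44, edgeR adjusted p = 0.801). A change of the size seen for Btc lies outside that interval. Fbxo22, on the opposite strand, overlaps Nrg4 and had 581 to 1042 reads per mouse, and the deposited tables gave Nrg4 18760 and 17353 reads in all. Nrg1 (ENSMUSG00000062991, chromosome 8), a neuregulin of nerve and endothelium, had 0 to 8 reads in AAV-GFP mice and 4 to 10 reads in AAV-Notum mice, 19 and 40 in all, and was not tested.

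**Figure D4:**
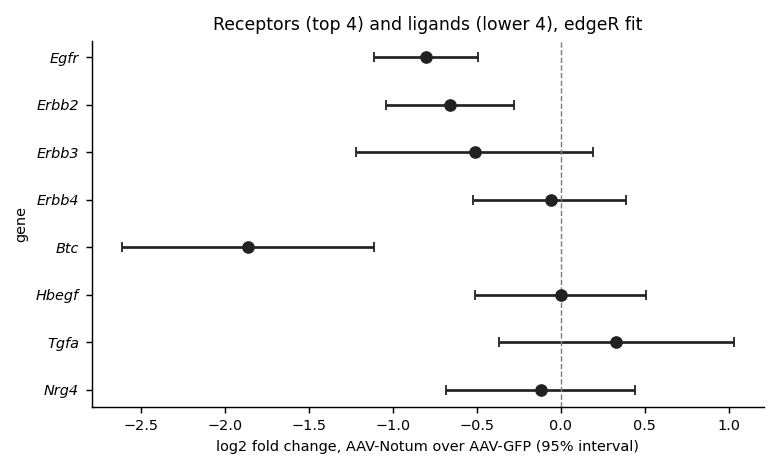
Log2 fold change of the tested members, AAV-Notum over AAV-GFP, from the edgeR fit, with 95% intervals; receptors are the upper 4 rows. The intervals of Egfr, Erbb2 and Btc lie below 0, and those of the other 5 include 0.

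The members did not vary together in a way that 12 mice could resolve. Over the 28 pairs of tested members, with group means removed, 0 had an adjusted permutation p of Pearson's r under 0.05. The unadjusted p of r was under 0.05 for Hbegf with Tgfa (r = 0.70, p = 0.0335; Spearman's rho = 0.57, p = 0.0966; adjusted p = 0.321 for r) and for Erbb2 with Tgfa (r = -0.72, p = 0.0419; rho = -0.64, p = 0.0938; adjusted p = 0.321). Without the 2 mice farthest from the median these r were 0.59 and -0.41. Within the 6 AAV-GFP mice r was 0.90 and -0.87, and within the 6 AAV-Notum mice -0.03 and 0.12. The unadjusted permutation p of rho was under 0.05 for Erbb4 with Nrg4 (rho = 0.72, p = 0.0165; r = 0.58, p = 0.0973) and for Erbb4 with Btc (rho = 0.57, p = 0.0487; r = 0.37, p = 0.0715), with an adjusted p of rho of 0.347 for both. As a description, the genes that followed Egfr most closely over the 12 mice, group means removed, were Fbxl21 (r = 0.94), Ppp4r4 (r = 0.92) and Pih1d2 (r = 0.91). Those closest to Erbb2 were Yif1a (r = 0.97), Abhd14a (r = 0.96) and Dclre1a (r = 0.96), and those closest to Btc were Eml5 (r = 0.95), Lonrf1 (r = 0.95) and 1700120C14Rik (r = 0.94). Their libraries are shared, and they were picked from all genes tested for their likeness. The log2 fold changes of these 9 genes ran from -0.84 for Lonrf1 (edgeR adjusted p = 0.165) to 0.38 for 1700120C14Rik (adjusted p = 0.519), and 0 of them passed an adjusted p of 0.05, with 3 (Lonrf1, Dclre1a and Yif1a, all lower) under 0.05 before adjustment.

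The wider pathway was described with 67 further gene symbols in 5 lists, of which 65 were in the table and 60 were tested; Nrdc was not matched, nor was Nrdp1, another name of the listed Rnf41. By edgeR 0 of the 60 passed an adjusted p of 0.05, DESeq2 called 2 lower and 0 higher, and before adjustment 8 were lower and 1 higher. Among all genes 9.54% were lower and 4.64% higher before adjustment, and DESeq2 called 2.26% lower, so the lists' counts lay near the background. Their median log2 fold change was 0.01, equal to that of all genes. None of the 13 genes of the Ras-ERK cascade, the kinases and Ras proteins downstream of the receptors, had an unadjusted p under 0.05 (0 by DESeq2). Of 20 adaptors and enzymes bound to the receptors 4 were lower at that unadjusted threshold, of 6 tested genes of ligand shedding 1 was lower, and of 19 tested inhibitors and turnover genes 3 were lower and 1 higher. Of the other ligands, Egf itself had 63 to 136 reads per mouse and a log2 fold change of -0.13 (adjusted p = 0.723).

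Errfi1, which encodes MIG6, a feedback inhibitor that binds the EGFR kinase domain, had the largest difference of these. Its level was 35.6 to 111 CPM in AAV-GFP mice and 19.7 to 37.7 CPM in AAV-Notum mice, overlapping at the edge. The log2 fold change was -1.17 (SE 0.27, edgeR adjusted p = 0.13, DESeq2 adjusted p = 0.00488, unadjusted exact permutation p = 0.00649), and its highest value was in AAV-GFP mouse S_2013. Eps8, an EGFR substrate that acts on the actin cytoskeleton, was 21.5 to 37.7 CPM in AAV-GFP mice and 17.2 to 18.9 CPM in AAV-Notum mice, without overlap. Its log2 fold change was -0.57 (SE 0.13, edgeR adjusted p = 0.13, DESeq2 adjusted p = 0.0127, unadjusted exact permutation p = 0.00216).

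The others with an unadjusted p under 0.05 had smaller differences than Errfi1, and their groups overlapped. The adaptors Grb10 (81.0 ± 22.6 and 52.4 ± 11.6 CPM) and Gab1 (27.9 ± 7.86 and 18.0 ± 3.90 CPM) had log2 fold changes of -0.63 and -0.64 and edgeR adjusted p of 0.189 and 0.208. Ptpn11, the gene of the phosphatase SHP2, which carries the signal towards Ras, had -0.32 (adjusted p = 0.328). Rhbdf1, which encodes iRhom1, a helper of the ligand-shedding protease ADAM17, had -0.51 (adjusted p = 0.242). Lrig3, of a family that modulates EGF receptors, had -0.71 (adjusted p = 0.25), and Cav1, the caveolin gene, named here after its value was seen, had -0.67 (adjusted p = 0.346). Socs5, an inhibitor that promotes EGFR degradation, was the single higher gene, at 25.5 ± 1.68 and 28.5 ± 2.09 CPM (log2 fold change 0.16, adjusted p = 0.332).

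**Figure D5:**
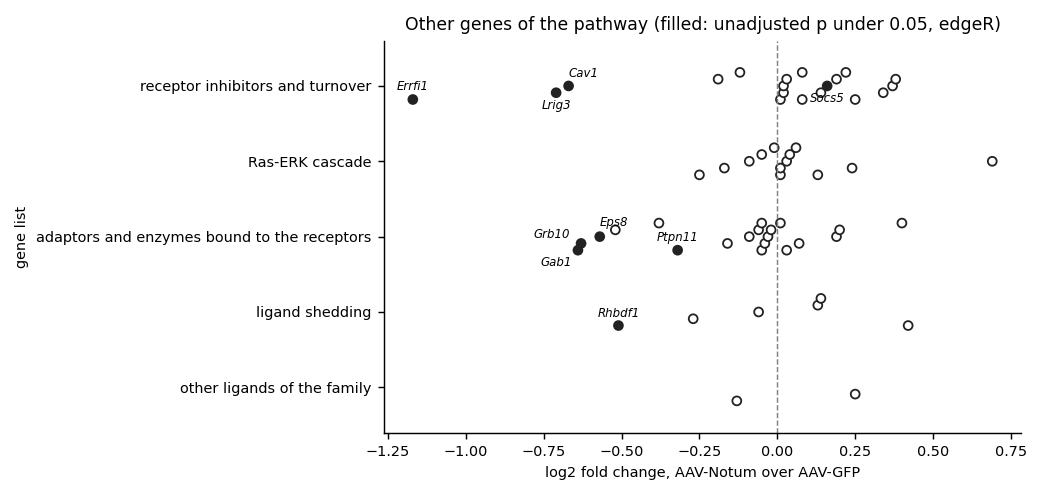
Log2 fold change (AAV-Notum over AAV-GFP, edgeR) of the tested genes of each pathway list, one point per gene; filled points had an unadjusted p under 0.05 and are named. Errfi1 stands farthest out at -1.17, and the Ras-ERK cascade has no filled point.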

How the data were processed

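Total RNA of iWAT from 12 mice was sequenced as 50-base single reads. The authors checked reads with FastQC, aligned them to mm10 with STAR 2.3.1 and used DESeq2, and deposited a raw count table and a table of normalized log2 values. The counting program and annotation are not given in the sources used here. Dividing the deposited log2 values back gave whole reads (tolerance 0.1) for 100% of the values, and these served as an alternative. The text uses the counts as the authors deposited them.

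Genes passing edgeR's filter (count 10, total 15) numbered 15585. They were TMM-normalized and tested with edgeR 4.0.16 (quasi-likelihood, Benjamini-Hochberg over all genes; R 4.3.3), AAV-Notum against AAV-GFP. DESeq2 1.42.0, limma-voom, other scalings, filters and covariates were alternatives. Single values had two-sided exact permutation tests over 924 assignments, with p-values left unadjusted unless stated. The edgeR fit was also run on simulated counts drawn independently for each gene and mouse, which does not cover differences in tissue makeup. CPM uses TMM library sizes. Gene lengths and coordinates came from GENCODE for GRCm38, the build of mm10, and promoter sequences from RefSeq. RNA integrity numbers were 5.7 to 7.6 in AAV-GFP mice, lowest in mouse S_2011, and 6.9 to 7.4 in AAV-Notum mice. RNA of AAV-GFP mouse S_2012 was isolated 22 days after collection and that of the others after 2 days. Named genes were the members, the 8 pathway genes of smallest p, and the 3 genes most correlated with each of Egfr, Erbb2 and Btc. The pathway genes Egf, Ereg, Epgn and Cav1 were described outside that rule. Members and lists were chosen with earlier results of these data known. Mice are separate animals, and the p-values treat them as independent. Each series of mouse numbers held a single virus, so the p-values cannot measure a spread between such series.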

Additional observations from a re-analysis of the deposited data

Results flagged for a closer look

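By Dixon's test at 95%, a mouse stood apart where most of its group's range lay between it and the next mouse. This held in 6 of 66 groups of values examined, where chance gives about 3.3. Erbb3 in AAV-GFP mouse S_2013 was 18.3 CPM against 4.75 to 7.67 CPM in the other AAV-GFP mice, and its share of the summed receptor level was 23.4% against 6.7 to 11.1%. The same mouse had the most hepatocyte transcripts, and with the hepatocyte score as a covariate the log2 fold change of Erbb3 was -0.01 in place of -0.51. Areg in AAV-Notum mouse S_2032 was 0.314 CPM, which is 6 reads, against 0 to 0.0565 CPM. Gab1 in AAV-Notum mouse S_2042 was 25.4 CPM against 14.8 to 18.5 CPM. The fibroblast and adipose progenitor marker score of AAV-Notum mouse S_2032 was 7.15 against 6.75 to 6.88, and the macrophage marker score of AAV-GFP mouse S_2014 was 4.62 against 5.59 to 5.89.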

How the results depend on the processing

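No paired analysis was possible because the groups share no replicate number. Egfr, Erbb2 and Btc were lower under every alternative run, while their adjusted p depended on the tool and the mice: apart from leaving out single mice, Egfr ranged from -1.04 to -0.35 (adjusted p 5.86e-05 to 0.67), Erbb2 from -0.82 to -0.26 (0.0285 to 0.715) and Btc from -2.32 to -0.44 (5.19e-05 to 0.67). Without AAV-GFP mice S_2011 and S_2014, or without S_2013, each kept an unadjusted edgeR p under 0.05. DESeq2 gave -0.80, -0.65 and -1.86 on the log2 scale, past 0.05 after adjustment for all 3, and without its independent filtering Egfr (-0.80) and Btc (-1.86) stayed past it. Library size alone gave -0.77 for Egfr and -1.78 for Btc, and mice S_2011 to S_2014 and S_2031 to S_2034 gave -1.04 and -2.32, all past it, as did the adipocyte score as a covariate for Egfr (-0.70).

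Genes lower at an adjusted p under 0.05 numbered 8 by edgeR. They numbered 357 by DESeq2, 235 without its independent filtering, 13 with RLE factors, 43 with library size alone, 5 with at least 1 count in all samples together, 14 with at least 10 counts in every sample, 4 with the lymphoid score, 28 with the hepatocyte score and 35 with the adipocyte score as a covariate, 5 without the mouse of the later RNA isolation, 1 without AAV-GFP mice S_2011 and S_2014, 301 in mice S_2011 to S_2014 and S_2031 to S_2034, and 0 in mice S_2021, S_2022, S_2041 and S_2042. Higher genes numbered 0 by edgeR and, in the same order where not 0, 79, 45, 1, 2, 1 (at least 10 counts), 1 (reads recovered from the log2 table), 3 (hepatocyte score), 10 (adipocyte score) and 42 (mice S_2011 to S_2014 and S_2031 to S_2034). The causes were not tested.

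The estimates of the other 5 tested members, whose intervals include 0, changed sign under some alternatives. With the lymphoid score as a covariate Erbb4 was 0.09, Hbegf -0.27, Tgfa -0.08 and Nrg4 0.07, and with the adipocyte score Erbb4 was 0.08, Hbegf -0.11 and Nrg4 0.04. In mice S_2021, S_2022, S_2041 and S_2042 Erbb3 was 0.33, Erbb4 0.48, Hbegf -0.34, Tgfa -0.21 and Nrg4 0.37. Hbegf was -0.02 with recovered reads, -0.05 with the RNA integrity number and -0.21 without AAV-GFP mice S_2011 and S_2014, and Nrg4 was 0.01 without the later isolation. The share of Egfr differed by -3.7 points without division by length (exact permutation p = 0.0281).

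Leaving out each mouse in turn gave 0 to 12 higher and 1 to 146 lower genes, both highest counts without AAV-GFP mouse S_2022; without S_2013 it was 18 lower genes, and without S_2033 it was 1. Without any other mouse but S_2042 (8) it was 2 to 5. Log2 fold changes ranged from -0.90 to -0.74 for Egfr, -0.74 to -0.57 for Erbb2, -0.62 to -0.05 for Erbb3, -0.19 to 0.06 for Erbb4, -0.11 to 0.13 for Hbegf, -2.02 to -1.69 for Btc, 0.20 to 0.66 for Tgfa and -0.28 to 0.02 for Nrg4. Differences in share ranged from -5.11 to -3.03 points for Egfr, -0.605 to 1.81 for Erbb2, 1.35 to 4.68 for Erbb3 and 0.792 to 1.11 for Erbb4. The fits by mouse number and by hepatocyte or adipocyte score were chosen after seeing the data. Areg and Nrg1 had too few reads to be tested.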
